A study of Mus musculus with 48 samples.

Results

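The MHC class II presentation genes described here are H2-Aa, H2-Ab1, H2-Eb1, Cd74, H2-DMa, Ciita and Ctss, 7 of the 18193 genes that 1 probe set or more of the array named by a single symbol. They were measured in the hippocampus of adult male C57BL/6J mice after chronic intermittent ethanol (CIE) by vapor, with 1 Affymetrix array per mouse. Together they had 15 of the 45037 probe sets, and each gene was followed through its brightest probe set, chosen by the highest mean over all 48 arrays. The genes had been picked with earlier results of these data known. The mean was 8.12 for H2-Aa, 7.45 for H2-Ab1, 6.91 for H2-Eb1, 7.51 for Cd74, 8.53 for H2-DMa, 4.93 for Ciita and 12.32 for Ctss, as log2 RMA values, where 1 unit is a doubling of the signal. The closest choice was for H2-Aa, whose next probe set averaged 7.66, and these means only select the probe sets and were not tested.

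CIE mice had 4 cycles of ethanol vapor, each of 4 days with 16 h of vapor per day at 10 to 13 mg/l air followed by 7 days without ethanol. Before each cycle they were injected with ethanol (1.6 g/kg) and with pyrazole (1 mmol/kg), which slows the breakdown of ethanol. Ctrl mice breathed air in the same schedule and received saline and pyrazole, so pyrazole was common to all groups. After the last chamber session, hippocampi of 6 CIE mice and 6 Ctrl mice were collected at 0 h, and those of further mice at 8 h, 72 h and 7 d, which makes 8 groups of 6.

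MHC class II molecules are pairs of an alpha and a beta chain that carry peptides from engulfed proteins to the cell surface, where CD4 T cells read them. New pairs are held by the invariant chain until proteases of the endosome trim it and a peptide takes its place. In the brain, microglia carry little class II at rest and more once activated, and macrophages of the brain borders carry it constitutively. Interferon-gamma raises the genes of the class II chains and the invariant chain through the coactivator CIITA. It binds no DNA itself and joins proteins on a shared promoter module, the X and Y boxes.

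RefSeq promoter windows (GRCm38.p6, 250 bases before to 50 bases after the annotated start) were at hand for 4 of the 7 members, and the stretches of 120 bases just upstream of the start are shown for 3 of them because they carry this module or an interferon-type element. Capitals in the H2-Aa and H2-Eb1 lines mark GCAAC, a core of the X box, and GATTGG, the Y box, and capitals in the Ctss line mark GAAANNGAAA, the pattern of an interferon-stimulated response element. The stretches lie at chr17:34287824-34287943 on the minus strand for H2-Aa, chr17:34305747-34305866 on the plus strand for H2-Eb1 and chr3:95526666-95526785 on the plus strand for Ctss, each read 5′ to 3′ in the direction of transcription.
H2-Aa: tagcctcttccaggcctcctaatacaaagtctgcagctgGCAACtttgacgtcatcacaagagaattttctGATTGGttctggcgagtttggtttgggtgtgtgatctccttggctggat
H2-Eb1: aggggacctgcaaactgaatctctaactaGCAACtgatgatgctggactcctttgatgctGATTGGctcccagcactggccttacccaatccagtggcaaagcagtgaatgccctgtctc
Ctss: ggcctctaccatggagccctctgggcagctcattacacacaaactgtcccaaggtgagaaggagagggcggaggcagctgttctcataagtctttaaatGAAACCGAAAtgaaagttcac

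In H2-Aa the X core began 81 bases and the Y box 49 bases before the start, 32 bases apart. In H2-Eb1 they began 91 and 60 bases before it, 31 bases apart. On either strand, GCAAC followed by GATTGG within 50 bases was found in 230 of 32851 RefSeq promoter windows (0.7%), against 35.2% for GCAAC and 16.1% for GATTGG on their own. GAAANNGAAA began 21 bases before the Ctss start and was present in 3.44% of the windows. Ctss had no match to the other motifs, and a further GATTGG of H2-Eb1 on the opposite strand is left in lower case. The 2 windows of H2-DMa held neither the ordered pair nor GAAANNGAAA. The motifs were chosen from general knowledge after the windows had been read, and a match describes letters and not a site in use.

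Over the whole series the array medians lay between 6.601 and 6.627 and the arrays correlated at 0.974 to 0.998. The mean of 8 neuronal genes, which include the hippocampal markers Prox1, C1ql2, Wfs1 and Spink8, was 10.04 to 11.55 in the single mice, and its lowest value came from a Ctrl mouse at 7 d. In 47 arrays, values shared on the same probe sets sorted the arrays into 6 sets, each with 1 mouse per group. That the arrays of a set were normalized together is inferred from these values alone. Set 6 lacked a Ctrl mouse of the earliest time, and the remaining array of that group, from Ctrl mouse 2, fell in no set and carried up to 6 decimals instead of 9. Whether the sets are the hybridization batches of the study is not stated in the sources used here.

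The alpha chain gene H2-Aa showed the largest difference of the 7 members at 8 h. At 8 h the lowest, median and highest values were 10.36, 10.87 and 11.60 in CIE mice and 5.32, 8.31 and 9.95 in Ctrl mice. Every CIE mouse stood above every Ctrl mouse, and CIE minus Ctrl was 2.87 on the log2 scale (SE 0.53, 7.30-fold, limma adjusted p = 0.000471, n = 6 per group). At 0 h the corresponding values were 9.48, 10.30 and 10.69 in CIE mice and 6.09, 8.03 and 9.90 in Ctrl mice. Ctrl mouse 20 lay within the CIE range, so the groups overlapped, and the difference of 2.01 (SE 0.53, 4.03-fold) did not pass the threshold of an adjusted p of 0.01 (adjusted p = 0.0170). In bulk tissue such as this, fewer cells of a type and less RNA per cell cannot be told apart.

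By 72 h the order of the groups was gone for H2-Aa. Values were 6.32, 7.55 and 7.96 in CIE mice and 6.53, 7.43 and 8.96 in Ctrl mice, and the difference of -0.33 had a 95% confidence interval from -1.40 to 0.75. At 7 d they were 6.14, 6.51 and 7.35 in CIE mice and 5.59, 5.88 and 6.57 in Ctrl mice. CIE mice were above Ctrl mice in 33 of 36 pairs at 7 d, with a difference of 0.66 (SE 0.53, adjusted p = 0.533, exact two-sided permutation p = 0.0130, 1 of 28 such tests and not adjusted). The 3 other H2-Aa probe sets differed by 0.37, 0.05 and 0.04 at 7 d, none of them past the threshold.

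The beta chain genes followed the same course, with smaller differences than the brightest H2-Aa probe set. H2-Ab1, the beta partner of H2-Aa in the class II molecule of these mice, had values of 8.87, 9.35 and 10.08 in CIE mice at 8 h and 6.32, 7.43 and 8.74 in Ctrl mice. The groups did not overlap and differed by 1.94 (SE 0.37, 3.84-fold, adjusted p = 0.000691). At 0 h H2-Ab1 was 8.20, 8.69 and 9.18 in CIE mice and 5.54, 7.46 and 9.07 in Ctrl mice, an overlapping pair of groups with a difference of 1.26 (SE 0.37, adjusted p = 0.0331).

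H2-Eb1 encodes the beta chain of the second class II molecule, for which the C57BL/6 haplotype makes no alpha chain, so that its transcript is present without a complete molecule. It was 8.41, 8.92 and 9.46 in CIE mice at 8 h and 5.81, 6.91 and 8.07 in Ctrl mice. No Ctrl mouse reached the CIE range, and the difference was 2.01 (SE 0.34, 4.02-fold, adjusted p = 0.000125). At 0 h the values were 7.67, 8.16 and 8.51 in CIE mice and 5.45, 6.46 and 8.28 in Ctrl mice, with overlap and a difference of 1.35 (SE 0.34, adjusted p = 0.0107). H2-Ab1 and H2-Eb1 differed by -0.22 and -0.21 at 72 h and by 0.11 and 0.07 at 7 d, with adjusted p between 0.916 and 0.943.

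Cd74, the invariant chain that guards the peptide groove, rose at both early times. At 0 h it was 8.22, 8.33 and 9.07 in CIE mice and 6.65, 7.17 and 8.50 in Ctrl mice, a difference of 1.21 (SE 0.25, 2.32-fold, adjusted p = 0.00232). Ctrl mouse 20 alone among the Ctrl mice reached the CIE values. At 8 h Cd74 was 8.40, 8.97 and 9.38 in CIE mice and 6.60, 7.51 and 8.37 in Ctrl mice, without overlap and with a difference of 1.44 (SE 0.25, 2.72-fold, adjusted p = 0.000169). It was level at 72 h (-0.01, interval -0.51 to 0.49) and at 7 d (-0.07, interval -0.57 to 0.42).

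**Figure D1:**
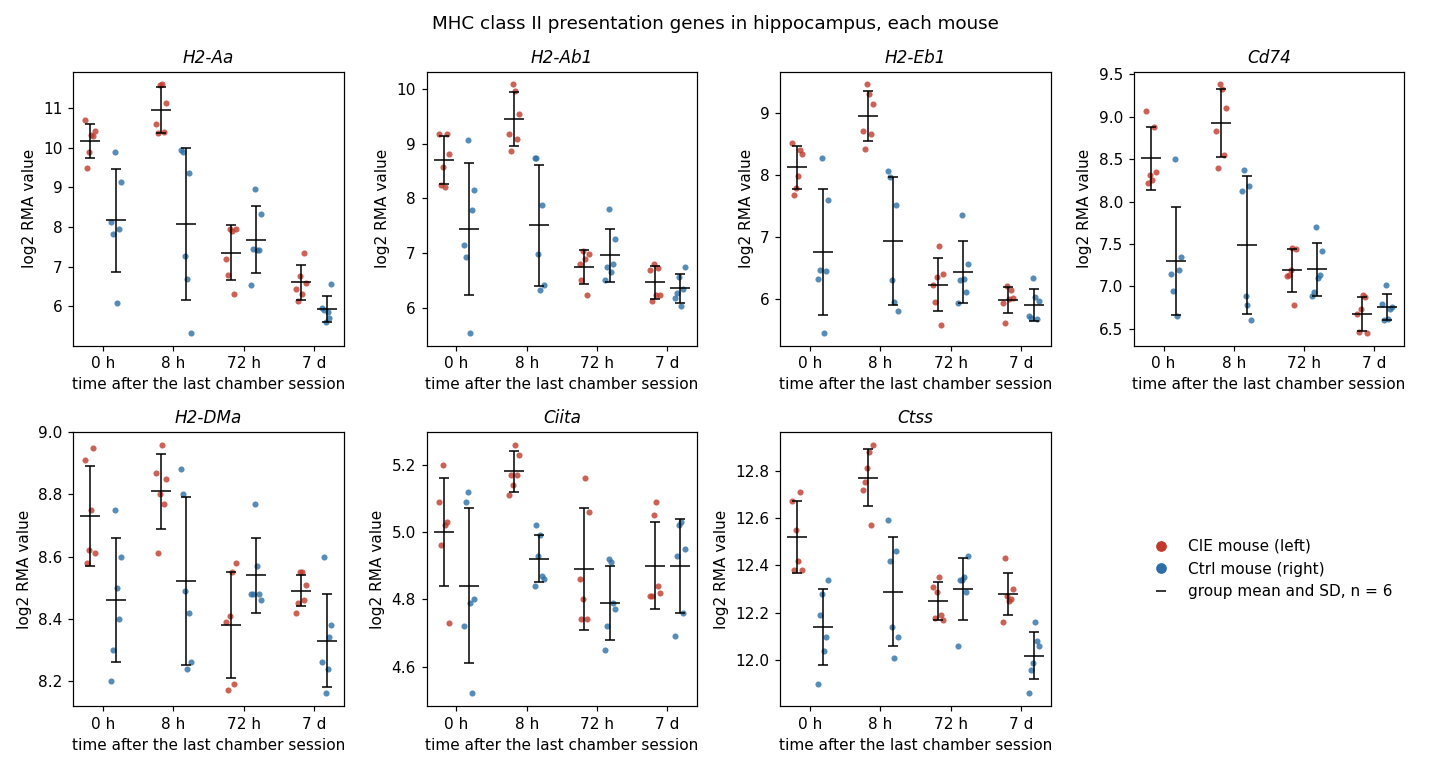
Log2 RMA value of each gene (vertical axes, each gene on its own scale) in every mouse by time after the last chamber session, CIE mice in red on the left and Ctrl mice in blue on the right of each time. Bars are the group mean and SD (n = 6), and at 8 h the CIE mice of H2-Aa, H2-Ab1, H2-Eb1, Cd74 and Ciita all sit above the Ctrl mice.

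Ctss encodes cathepsin S, the protease that makes the last cuts in the invariant chain, and is an abundant microglial transcript. It rose at both early times, by less than Cd74. At 0 h it was 12.38, 12.48 and 12.71 in CIE mice and 11.90, 12.14 and 12.34 in Ctrl mice, with no overlap and a difference of 0.38 (SE 0.08, 1.30-fold, adjusted p = 0.00325). At 8 h it was 12.57, 12.78 and 12.91 in CIE mice and 12.01, 12.28 and 12.59 in Ctrl mice, a difference of 0.49 (SE 0.08, 1.40-fold, adjusted p = 9.99e-05), where Ctrl mouse 4 alone exceeded a CIE mouse. At 7 d it was 12.16, 12.27 and 12.43 in CIE mice and 11.86, 12.02 and 12.16 in Ctrl mice. The 2 groups again did not overlap in any of 36 pairs at 7 d, and the difference of 0.26 (SE 0.08, interval 0.10 to 0.42) did not pass the threshold (adjusted p = 0.0439, exact permutation p = 0.00216, the smallest that 924 arrangements allow). The share of all probe sets without overlap at 7 d was not worked out.

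H2-DMa and Ciita moved little. H2-DMa is a chain of the chaperone that exchanges invariant chain remnants for peptide, and it was 8.61, 8.83 and 8.96 in CIE mice at 8 h and 8.24, 8.46 and 8.88 in Ctrl mice, a difference of 0.30 (SE 0.09, adjusted p = 0.0587) with overlap. At 0 h its difference was 0.28 (SE 0.09, adjusted p = 0.0738). Ciita, the coactivator, was 5.11, 5.17 and 5.26 in CIE mice at 8 h and 4.84, 4.90 and 5.02 in Ctrl mice. These narrow ranges did not overlap, although the difference of 0.26 (SE 0.08, 1.20-fold) did not pass the threshold in the fit over all 48 arrays (adjusted p = 0.0523). The Ciita probe set was dim, with only 27.0% of all probe sets below it, and its 2 other probe sets differed by 0.17 and -0.01 at 8 h, neither past the threshold.

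Counted over the members, 2 of 7 were called higher in CIE mice at 0 h (Cd74 and Ctss) and 5 of 7 at 8 h (H2-Aa, H2-Ab1, H2-Eb1, Cd74 and Ctss), where 0.917% and 1.54% of all 45037 probe sets were called higher at those times. Since earlier results guided the choice of members, these counts are descriptions. For counts at an unadjusted p under 0.05 and by the exact test, here and below, no share of all probe sets was worked out. At 72 h 0 of 7 were called by limma, with 0 at an unadjusted p under 0.05 and 0 by the exact test (background 0.00444% called higher), and at 7 d also 0 of 7, with 1 at an unadjusted p under 0.05 and 3 by the exact test (background 0.655%). From the earliest to the latest time the median difference of the members was 1.21, 1.44, -0.16 and 0.11, beside 0.02, 0.00, 0.01 and 0.01 for all probe sets. Groups without overlap, CIE above Ctrl, were found for 1 of 7 members at 0 h (Ctss) and for 5 of 7 at 8 h, compared with 0.826% and 1.88% of all probe sets. At 7 d only Ctss had such groups, with no share of all probe sets worked out. A moderated F test of the 4 CIE minus Ctrl differences called 6 of 7 members, all but Ciita (adjusted p = 0.0558), where 7.67% of all probe sets were called.

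The calls depended on which arrays entered the fit. When only the 12 arrays of the time were fitted, the 0 h calls of Cd74 and Ctss were lost (adjusted p = 0.0452 and 0.0575), and at 8 h the 5 called members had adjusted p between 0.0128 and 0.0353 while Ciita was called (adjusted p = 0.00865). Both 0 h calls were also lost with array weights and with the array sets as a block. Over the whole array the main fit called 865 of 45037 probe sets at 0 h in either direction. The calls were 42 with only the arrays of the time, 260 with array weights and 182 with the block. At 8 h the main fit called 967 probe sets and the fit of that time alone 499. The block fit used 47 arrays, because Ctrl mouse 2 is in no set. The 0 h call of Ctss was lost without Ctrl mouse 2 (0.33, adjusted p = 0.0166) and without CIE mouse 67 (0.34, adjusted p = 0.0108), whereas Cd74 stayed at 1.18 without Ctrl mouse 2 (adjusted p = 0.00782). Without Ctrl mouse 20 the count at 0 h was 5 of 7. For fits that leave out a mouse, here and below, no share of all probe sets is given.

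**Figure D2:**
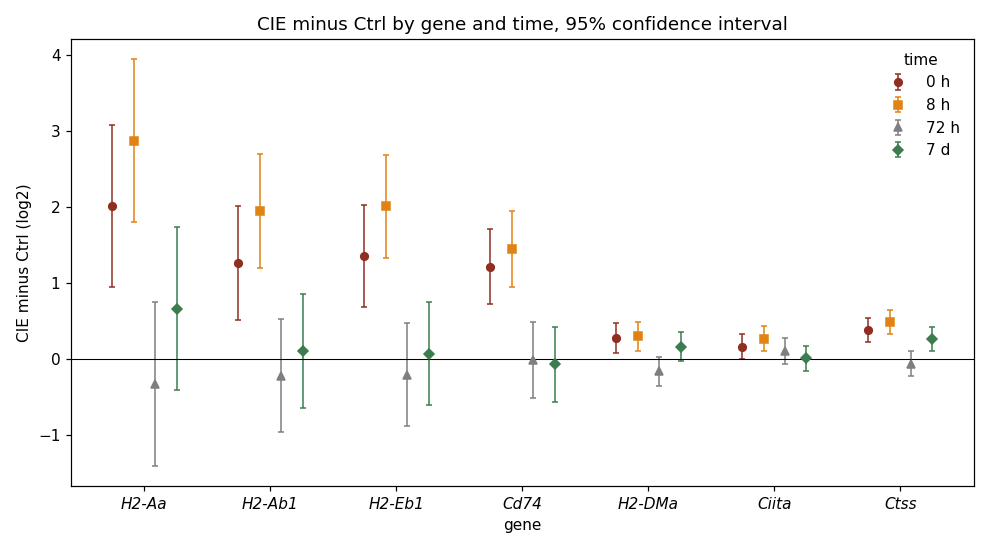
CIE minus Ctrl on the log2 scale (vertical axis) for each gene (horizontal axis) at 4 times, with 95% confidence intervals from the limma fit of 48 arrays. The 8 h difference is the largest for each of the 7 genes, from 0.26 for Ciita to 2.87 for H2-Aa, and at 72 h every interval includes 0.

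The remaining 8 probe sets of the members gave the same direction for the class II chains at 0 h and 8 h, but not the same order of size. At 8 h 5 of them were called higher, namely the 3 others of H2-Aa (2.36, 2.17 and 1.11) and both others of H2-Ab1 (1.94 and 1.10), and the 2 of Ciita and the 1 of H2-DMa were not. At 0 h 3 were called, among them 1.61 for an H2-Aa probe set (adjusted p = 0.00480) and 1.13 for an H2-Ab1 probe set (adjusted p = 0.00910), although the brightest probe sets of both genes were not. The H2-Aa probe set that is not of the _x_at type differed by 0.97 at 0 h (1.96-fold, adjusted p = 0.0213), against 4.03-fold for the brightest, and the dimmest by 0.43 (adjusted p = 0.204). Both were below the brightest probe sets of H2-Ab1 (1.26) and H2-Eb1 (1.35) at 0 h. At 8 h the dimmest, 1.11, was below their 1.94 and 2.01, so the place of H2-Aa above the beta chains depended on the probe set. At 72 h and 7 d 0 of the 8 were called, with 1 and 0 at an unadjusted p under 0.05. The brightest H2-Aa probe set is of the _x_at type, whose probes can also match other transcripts, and how much such signal it holds was not tested.

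Along the time course, members passed the threshold in 2 of 4 steps in CIE mice and in 0 of 4 in Ctrl mice, but the steps of CIE and Ctrl mice did not differ past the threshold for any member. That test is the change in the CIE effect, with 0 of 7 called for 72 h minus 8 h and 0 of 7 for 7 d minus 0 h, and 6 and 3 at an unadjusted p under 0.05. In CIE mice 72 h minus 8 h, 6 of 7 members were called lower, against 1.72% of all probe sets. H2-Aa fell by 3.59 (12.1-fold, adjusted p = 9.37e-06), H2-Eb1 by 2.72 (6.59-fold, adjusted p = 2.63e-07) and H2-Ab1 by 2.70 (6.52-fold, adjusted p = 1.99e-06). Cd74 fell by 1.74, Ctss by 0.53 and H2-DMa by 0.43, and Ciita differed by -0.29 (adjusted p = 0.0265). In CIE mice at 7 d compared with 0 h, 4 of 7 were called lower (background 0.411%), with differences of -3.58 for H2-Aa, -2.23 for H2-Ab1, -2.13 for H2-Eb1 and -1.83 for Cd74. Between 0 h and 8 h, and between 72 h and 7 d, 0 of 7 members were called in CIE mice, with 4 and 1 at an unadjusted p under 0.05 (background in either direction 2.86% and 0.00666%).

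Ctrl mice gave 0 of 7 calls in the same 4 steps, where few probe sets of the whole array were called. The background in either direction was 1.12% for 8 h minus 0 h, 0.113% for 72 h minus 8 h, 0.0799% for 7 d minus 72 h and 0.211% for 7 d minus 0 h. At an unadjusted p under 0.05 the counts were 0 for 8 h minus 0 h, 0 for 72 h minus 8 h, 3 for 7 d minus 72 h and 4 for 7 d minus 0 h. The largest of these differences was that of H2-Aa at 7 d compared with 0 h, -2.24 (SE 0.53, adjusted p = 0.0303). The groups of H2-Aa ran from CIE 8 h (mean 10.95, SD 0.57) and CIE 0 h (10.18, SD 0.43) over Ctrl 0 h (8.17, SD 1.30), Ctrl 8 h (8.08, SD 1.92), Ctrl 72 h (7.68, SD 0.85), CIE 72 h (7.35, SD 0.70) and CIE 7 d (6.60, SD 0.43) down to Ctrl 7 d (5.93, SD 0.34). With the groups ordered by mean for each gene separately, every group overlapped in range with its neighbour in its own gene's order. CIE 8 h and CIE 0 h were the highest groups of all 7 members.

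Whether the CIE effect itself changed was tested as a difference of differences, and 0 of 7 members passed the threshold for any of the 6 pairs of times. An unadjusted p under 0.05 was reached in 22 of 42 tests, a count with no share of all probe sets to set beside it. Over the whole array the 6 comparisons called 0 to 27 of 45037 probe sets. The smallest adjusted p came from 72 h minus 8 h, with -0.55 (SE 0.11, adjusted p = 0.0319) for Ctss and -2.22 (SE 0.47, adjusted p = 0.0342) for H2-Eb1. The size was largest for H2-Aa, -3.20 (SE 0.75, adjusted p = 0.0626). In that comparison 0.02% of all probe sets had a called decrease. With array weights 5 of 7 members were called, where 256 of 45037 probe sets were called in either direction, against 10 in the main fit. Without Ctrl mouse 4 at 8 h 2 of 7 members were called, with no share of all probe sets given. From 0 h to 8 h the effect differed by 0.86 for H2-Aa (interval -0.66 to 2.38) and 0.11 for Ctss (interval -0.12 to 0.34).

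The Ctrl mice of 0 h and 8 h were unusually unlike each other in the class II chains. At 8 h the SD of H2-Aa was 0.57 in CIE mice and 1.92 in Ctrl mice, and at 0 h 0.43 in CIE mice and 1.30 in Ctrl mice. The highest of the 8 h mice had 2.4-fold the H2-Aa signal of the lowest among CIE mice and 24.8-fold among Ctrl mice. In Ctrl mice at 0 h and 8 h at least 99.3% of all probe sets had a smaller SD than H2-Aa, H2-Ab1, H2-Eb1 or Cd74, and the median SD over all probe sets was 0.18 at 0 h and 0.13 at 8 h. High ranks of these genes were not confined to those groups. The share was at least 98.6% in CIE mice at 8 h, 95.5% in CIE mice at 0 h and 96.2% in Ctrl mice at 72 h. Ctrl mice at 7 d were narrow, with an SD of 0.34 for H2-Aa and 0.15 for Cd74. In Ctrl mice at 8 h Ctss had an SD of 0.23 and Ciita of 0.07, with 85.7% and 15.3% of all probe sets below them.

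**Figure D3:**
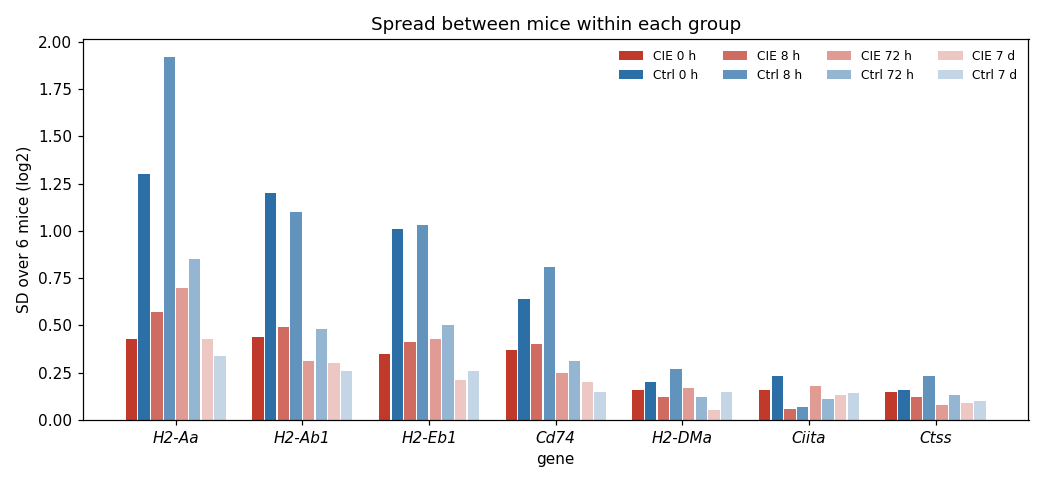
SD over the 6 mice of each group (vertical axis, log2) for each gene, with CIE in red and Ctrl in blue and later times in paler shades. The Ctrl bars of 0 h and 8 h are the tallest for H2-Aa, H2-Ab1, H2-Eb1 and Cd74, reaching 1.92 for H2-Aa at 8 h.

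The same Ctrl mice were high in each of the 4 genes. At 8 h Ctrl mice 4, 8 and 66 had H2-Aa values of 9.95, 9.88 and 9.35 and Ctrl mice 32, 42 and 79 had 7.27, 6.70 and 5.32. For Cd74 Ctrl mice 4, 8 and 66 had 8.12, 8.37 and 8.18, and Ctrl mice 32, 42 and 79 had 6.89, 6.78 and 6.60. At 0 h Ctrl mouse 20 was the highest Ctrl mouse for all 4 genes (H2-Aa 9.90, H2-Ab1 9.07, H2-Eb1 8.28 and Cd74 8.50) and Ctrl mouse 38 the lowest (6.09, 5.54, 5.45 and 6.65).

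Within the array sets the direction at 8 h was the same in all 6 and its size was not. CIE minus Ctrl for H2-Aa was 0.65, 0.48, 4.32, 4.89, 1.06 and 5.81 in sets 1 to 6, and for Cd74 it was 0.72, 0.04, 2.48, 2.54, 0.37 and 2.50. In each of these sets the CIE mouse exceeded its Ctrl mouse, as it also did for H2-Ab1, H2-Eb1, Ciita and Ctss. For H2-Aa, Cd74, H2-Ab1, H2-Eb1 and Ciita the groups did not overlap at 8 h, so every matching of mice gives this direction. H2-DMa was higher in the CIE mouse in 4 of 6 sets at 8 h. At 0 h the difference for H2-Aa was 2.86, -0.42, 3.79, 2.37 and 1.16 in sets 1 to 5, and set 2 holds Ctrl mouse 20. Each set has 1 mouse per group, so a set and a mouse cannot be told apart.

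**Figure D4:**
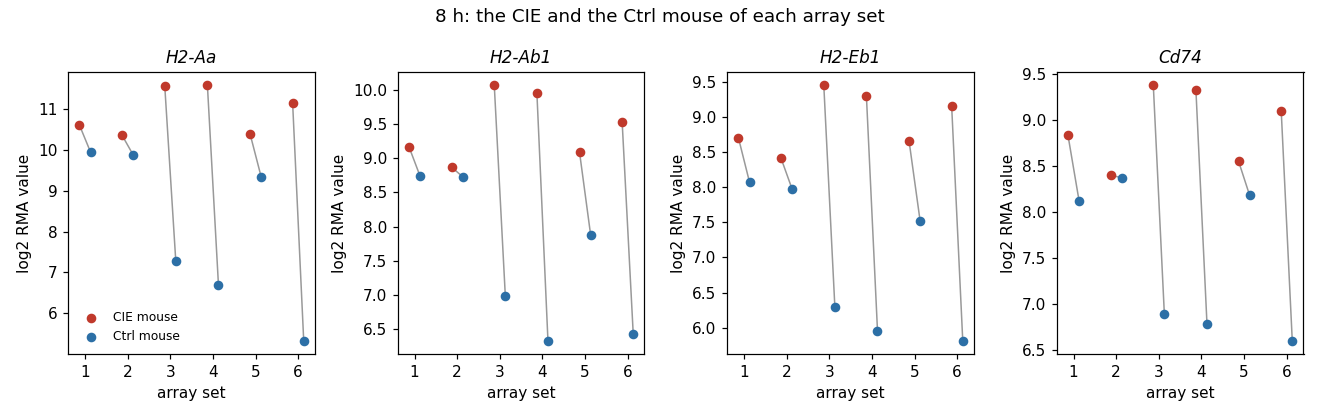
Log2 RMA value of the CIE mouse (red, left) and the Ctrl mouse (blue, right) of each array set (horizontal axis) at 8 h for 4 genes. Every line falls towards the Ctrl mouse, as it must where groups do not overlap. The fall is 0.48 to 5.81 for H2-Aa and 0.04 to 2.54 for Cd74.

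Mice that deviated from their group mean in 1 class II gene did so in the others. Over the 48 mice the 6 pairs among H2-Aa, H2-Ab1, H2-Eb1 and Cd74 had Pearson's r of 0.87 to 0.93 and Spearman's rho of 0.82 to 0.90, each with a permutation p of 1e-05, the smallest that 100000 permutations can give (adjusted p = 3.5e-05 over 21 pairs). Leaving out the 2 mice farthest from the median gave 0.86 to 0.92, and removing the array set means gave 0.88 to 0.94. The Ctrl mice of 0 h and 8 h held 72.7% of the squared deviations of H2-Aa although they are 25.0% of the mice, and without them the 6 correlations were 0.74 to 0.87 over 36 mice. Pairs with Ctss ran from 0.30 to 0.69 and pairs with H2-DMa from 0.35 to 0.68. Ciita was the loosest member, with r of 0.18 to 0.35, and its pairs with H2-Aa (permutation p = 0.124, adjusted p = 0.130) and H2-Ab1 (permutation p = 0.342) did not pass 0.05.

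**Figure D5:**
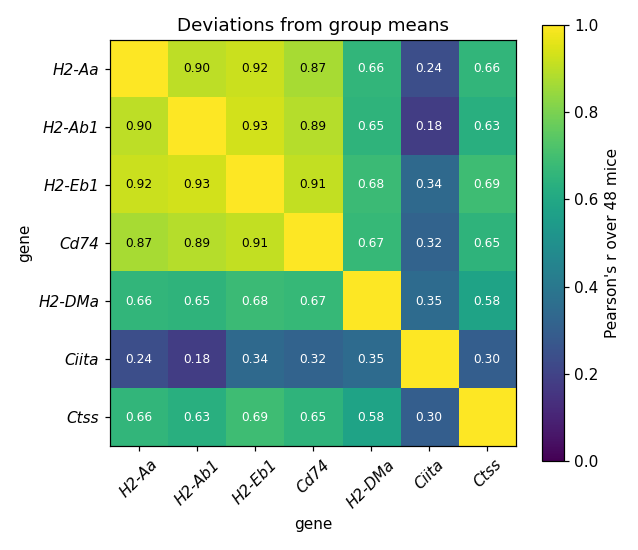
Pearson's r between deviations from the 8 group means over 48 mice for each pair of genes, on a colour scale from 0 to 1. The block of H2-Aa, H2-Ab1, H2-Eb1 and Cd74 lies at 0.87 to 0.93 and the Ciita row at 0.18 to 0.35.

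The genes most like the members were sought among 18186 other genes by r between their deviations and the mean scaled deviation of the members over 48 mice. They were Psmb9 (r = 0.91), H2-D1 (0.90), B2m (0.89), H2-K1 (0.89), Igtp (0.88), Gbp6 (0.87), Tap1 (0.87) and Psmb8 (0.87). The median r of all genes was 0.02 and the 99th percentile 0.45, and 17 genes exceeded 0.8. Psmb9 and Psmb8 encode immunoproteasome subunits, Tap1 a peptide transporter, H2-D1, H2-K1 and B2m class I chains, and Igtp and Gbp6 interferon-inducible GTPases. In the RefSeq gene order on chromosome 17, Psmb9, Tap1 and Psmb8 lie between H2-DMa and H2-Ab1, which is followed by H2-Aa and H2-Eb1. Psmb9 was 0.91 higher in CIE mice at 0 h (adjusted p = 0.00432) and 1.10 higher at 8 h (adjusted p = 0.000376), and differed by -0.12 at 72 h and 0.45 at 7 d (adjusted p = 0.179).

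Other genes of the pathway were read from lists drawn up with earlier results known, by count. Of 5 measured genes of peptide loading and further class II chains, 1 was called at 0 h and at 8 h, H2-Oa, a chain of the H2-O dimer that restrains peptide exchange. The 5 include H2-Ea, the alpha chain gene that goes with H2-Eb1, whose chain this haplotype does not make. Its probe set averaged 7.71 over the 48 arrays, and what that signal stems from was not tested. H2-Oa averaged 6.84 ± 0.17 in CIE mice and 5.89 ± 0.47 in Ctrl mice at 8 h (SD, n = 6), a difference of 0.95 (adjusted p = 1.63e-05), and 0.58 at 0 h (adjusted p = 0.00789). Of 7 genes of the promoter-binding machinery (the RFX and NF-Y subunits and Creb1) 0 were called at 0 h, 8 h and 72 h, with 2, 3 and 2 at an unadjusted p under 0.05, and 1 at 7 d, Nfyb, higher by 0.29 (adjusted p = 0.00285). Rfx5, which binds the X box, differed by -0.19 at 8 h (adjusted p = 0.0232).

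Of 7 measured genes from interferon-gamma to Ciita, 1 was called at each early time. Ifngr1, a chain of the interferon-gamma receptor, was higher by 0.27 at 0 h (adjusted p = 0.00603). Irf1, a transcription factor that acts on the Ciita promoter, was 9.35 ± 0.19 in CIE mice and 8.62 ± 0.31 in Ctrl mice at 8 h, higher by 0.74 (adjusted p = 0.000303). Of 8 endosomal proteases and inhibitors 1 was called, at 8 h, Ifi30, a thiol reductase that opens disulfide bonds of antigens, by 0.43 (adjusted p = 0.00407). Of 4 measured genes of class II traffic 0 were called at any time by limma, with 2 at an unadjusted p under 0.05, both at 8 h.

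Of 6 costimulatory genes, 1, 2, 0 and 1 were called higher from the earliest to the latest time. Cd274 (PD-L1, a ligand that restrains T cells) rose by 0.91 at 0 h (adjusted p = 0.00599) and by 1.08 at 8 h (adjusted p = 0.000755). Cd86, a ligand that costimulates them, rose by 0.35 at 8 h (adjusted p = 0.00570) and by 0.41 at 7 d (adjusted p = 0.00310), where no class II member was called. Cd80 differed by -0.25 at 0 h (adjusted p = 0.0369), the other direction, without passing the threshold. Median differences of these 6 lists at 8 h were -0.01 to 0.18, beside 0.01 for all genes.

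Markers of the cells that could carry class II were read beside the members. Of 11 microglial genes, among them P2ry12, Tmem119, Cx3cr1 and Csf1r, 0 were called at 0 h and 8 h, with 5 and 4 at an unadjusted p under 0.05. The 11 genes had a median difference of 0.00 at 0 h, where Tmem119 differed by 0.34 (adjusted p = 0.0173) and Olfml3 by -0.31 (adjusted p = 0.0315). Their mean level ranged over 9.04 to 9.27 in CIE mice and 8.97 to 9.21 in Ctrl mice at 8 h. At 7 d 2 of the 11 were called higher, Olfml3 by 0.45 (adjusted p = 0.00297) and Tmem119 by 0.40 (adjusted p = 0.00728), with mean levels of 9.06 to 9.47 in CIE mice and 8.84 to 9.14 in Ctrl mice. Of 8 border macrophage genes 1 was called, at 8 h, F13a1, by 0.68 (adjusted p = 0.00151), with mean levels of 5.96 to 6.36 in CIE mice and 5.72 to 6.18 in Ctrl mice. At 7 d 0 of these 8 were called and 6 had an unadjusted p under 0.05, with mean levels of 5.84 to 6.70 in CIE mice and 5.55 to 5.98 in Ctrl mice. Their part in the class II result was not tested.

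Dendritic and B cell markers gave no calls. Of 7 dendritic cell genes 0 were called by limma, with 0, 0, 0 and 1 at an unadjusted p under 0.05 from the earliest to the latest time, and of 7 B cell genes 0, with 0, 2, 1 and 0. Defining markers were dim, as Itgax stood above 30.2% of all probe sets, Xcr1 above 8.7%, Cd79a above 30.0% and Ms4a1 above 19.4%. At 8 h the mean level was 5.27 to 5.49 in CIE mice and 5.29 to 5.42 in Ctrl mice for dendritic cells, and 5.34 to 5.62 in CIE mice and 5.41 to 5.70 in Ctrl mice for B cells.

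T cell receptor complex genes were called at both early times, a different one at each. Of 7 T cell genes 1 was called at 0 h, Cd3d, by 0.47 (adjusted p = 0.00174), and 1 at 8 h, Cd3g, by 0.84 (adjusted p = 5.79e-05). Cd3g was 4.95 ± 0.12 in CIE mice and 4.11 ± 0.18 in Ctrl mice at 8 h, a dim probe set with 18.5% of all probe sets below it. The mean level of the list was 5.42 to 5.61 in CIE mice and 5.16 to 5.44 in Ctrl mice at 8 h, and its part in the class II result was not tested. At 7 d, when no member was called, 0 of 7 were called and 3 had an unadjusted p under 0.05, with 0.36 for Cd3d (adjusted p = 0.0164) and 0.40 for Cd3g (adjusted p = 0.0640). Cd4 differed by 0.09 at 8 h (adjusted p = 0.504) and by -0.16 at 7 d (adjusted p = 0.126).

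Of the remaining marker lists, 5 monocyte and neutrophil genes, 5 red blood cell genes, 5 endothelial genes and 8 neuronal genes gave 0 calls at any time by limma. At an unadjusted p under 0.05 the counts for these 4 lists were 0, 1, 0 and 1 at 0 h and 3, 2, 1 and 2 at 8 h. Later they were 1, 1, 0 and 0 (72 h) and 0, 1, 2 and 2 (7 d). The mean level of the monocyte and neutrophil list was 4.77 to 4.92 in CIE mice and 4.47 to 4.80 in Ctrl mice at 8 h, and its part in the class II result was not tested. Of 6 astrocyte genes Slc1a2 was called at 8 h, by 0.20 (adjusted p = 0.00545). Of 8 choroid plexus genes Otx2 was called lower at 0 h, by -1.21 (adjusted p = 0.00738), and Kl higher at 7 d, by 1.05 (adjusted p = 0.00385). The Otx2 probe set was dim, with 9.6% of all probe sets below it. Its SD at 0 h was 1.34 in Ctrl mice and 0.13 in CIE mice. Kl went the other way at 0 h, by 0.67 (adjusted p = 0.0561), without passing the threshold. At 0 h the choroid plexus list averaged 5.59 to 6.15 in CIE mice and 5.88 to 6.11 in Ctrl mice, and its part in the class II result was not tested.

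At 7 d, where H2-Aa and Ctss differed without passing the threshold, further markers of other cell types, beside Kl, Olfml3 and Tmem119 above, had differences in the same direction that did not pass it. Of 6 astrocyte genes 5 had an unadjusted p under 0.05, with 0.71 for Gfap (adjusted p = 0.0572), and the list averaged 11.18 to 11.62 in CIE mice and 10.49 to 11.34 in Ctrl mice. The choroid plexus gene Ttr differed by 2.12 (adjusted p = 0.0263), and the neuronal genes Spink8 and Neurod6 by 1.87 (adjusted p = 0.0191) and 0.92 (adjusted p = 0.0299). The part of these markers in the 7 d values of H2-Aa and Ctss was not tested.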

How the data were processed

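Hippocampal RNA of 48 mice was hybridised to Affymetrix mouse genome arrays, 1 per mouse. The deposited log2 values were made by the authors with RMA (named without a version in the submitters' processing notes): background correction and quantile normalization within each hybridization batch, quantile normalization of all arrays, then ComBat on the batch. ComBat removes differences between batches, and a fit without the batch can then overstate its precision. The labels name no batch, so sets were read from 5 or more values that arrays shared on the same probe sets. Probe sets were named through the platform annotation, where 34945 had 1 symbol, 932 several and 9160 none, and only those with 1 symbol were used for genes.

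Groups came from treatment and harvest time in the labels. All 45037 probe sets were fitted with limma 3.58.1 in R 4.3.3, 1 mean per group over 48 arrays, and called at a Benjamini-Hochberg adjusted p of 0.01 or less over all probe sets. The pipeline was tested on simulated data. Exact permutation tests (scipy 1.17.1, 28 of them, two-sided, not adjusted) compared single groups. Correlations used deviations from group means, with mice permuted within groups 100000 times. The members and lists were chosen with earlier results of these data known. All members were named, with up to 3 genes of smallest p per list and the 8 genes most like the members. The number of arrays limits the precision. Alternatives were single-time fits, array sets as a block, a minimum mean of 5, median centring, trended robust variances, array weights, 1 probe set per gene, other probe sets and leaving out each mouse. Where labels name separate mice, p-values measure the spread between those mice.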

Additional observations from a re-analysis of the deposited data

Results flagged for a closer look

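Of 56 group-by-gene tests for a mouse far from the rest of its group, 1 passed, where chance gives about 1 in 20. H2-DMa in Ctrl mice at 72 h had 1 high value, 8.77 in mouse 24, the next being 8.57, a gap of 0.66 of the range. The same mouse was also the highest Ctrl mouse at 72 h for H2-Aa (8.96), H2-Ab1 (7.80), H2-Eb1 (7.36) and Cd74 (7.70), none of which passed.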

How the results depend on the processing

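At 0 h the count of members called higher in CIE mice, 2 of 7, became 0 with only the arrays of the time, with the array sets as a block and with array weights, 4 with the second brightest probe set (added after the data were seen) and 6 with the exact test. Over all probe sets the 865 calls at 0 h became 42 with only the arrays of the time, 182 with the block and 260 with array weights. Leaving out single mice gave 1 to 5 members called, with 1 without Ctrl mouse 2 or CIE mouse 67 and 5 without Ctrl mouse 20. At 8 h the 5 calls became 1 with only the arrays of the time, and were 5 to 6 without single mice. That single-time fit called 499 of all probe sets, against 967 in the main fit. At 7 d the exact test gave 3 members in place of 0. For the smaller CIE effect at 72 h than at 8 h the count was 0, 5 with array weights, 1 with the brightest probe set that avoids the _x_at type (also added afterwards) and 0 to 2 without single mice, 2 without Ctrl mouse 4. In that comparison array weights called 256 of all probe sets, against 10 in the main fit. The probe set choice that avoids the _x_at type also gave 1 member in place of 0 for 7 d minus 8 h. It gave 1, as did array weights, for CIE mice at 8 h minus 0 h. There array weights called 3314 of all probe sets, against 1290 in the main fit. In Ctrl mice at 7 d minus 0 h, leaving out single mice gave 0 to 1 members called, 1 without mouse 38. Differences near 0 changed sign: H2-Aa at 72 h was 0.00 with the other probe set, H2-DMa at 72 h 0.07 with its second, Cd74 at 72 h 0.04 with array weights and -0.07 to 0.09 without single mice, and Ciita at 7 d 0.00 after centring, -0.01 with array weights and -0.03 to 0.03 without single mice. The cause of these shifts was not tested. Under settings other than leaving out a mouse and the exact test, 191 values of single members kept direction and side of the adjusted p threshold, 5 newly passed, 11 no longer passed and 5 changed sign. The exact test has its own threshold, an unadjusted p of 0.05, which 9 further values passed. Without 1 mouse, 321 kept both, 5 newly passed, 2 no longer passed and 8 changed sign. No paired analysis was possible because the replicate numbers in the labels are shared by no 2 groups, so this holds for those numbers alone. Matching by array set, read from the values, is the block given above.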
